A study of Drosophila melanogaster with 9 samples.

Results

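Chromatin accessibility was examined at 8 genes of germline stem cells and of germ cell differentiation in Drosophila melanogaster, bam, bgcn, nanos, pum, zpg, stwl, pgc and gcl, out of 18277 annotated genes. The genes were chosen by their known roles, and every ATAC-seq peak that overlapped a gene body or the 2 kb on either side of it was taken as a peak of that gene's locus. ATAC-seq marks open DNA by the insertion of sequencing adapters with a transposase. The study asked how transcription of the germline piRNA pathway is controlled, and measured 9 libraries in 4 groups. The first 2 groups were cultured ovarian somatic cells (OSCs), a female line of follicle cell origin without germ cells. They were either wild type (n = 2) or carried a knockout of l(3)mbt (Δl(3)mbt, n = 2), the gene of a chromatin protein that represses germline genes in somatic cells. Each genotype was a single cultured line. The study describes its replicates as distinct samples, and whether these were separate cultures was not given, so p-values measure only the spread between these samples. The other groups were whole ovaries of the w1118 strain (n = 2, 6 ovaries pooled per library) and of the vas-GFP strain, w[*]; TI{TI}vas[AID:EGFP], in which the endogenous vas gene carries the tag (n = 3, with 6, 10 and 30 ovaries pooled). The age of the females was not in the labels. Germ cells and several somatic cell types are mixed in a whole ovary, and an open site in few cells cannot be told apart from a weakly open site in many cells.

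The number of peaks differed between libraries. Wild-type OSC replicate 1 had 59420 peaks against 22037 in replicate 2, the Δl(3)mbt OSC libraries had 36659 and 27067, and the ovary libraries had 16588 to 24890, with the fewest in vas-GFP replicate 3. Fold enrichment, the pileup at the summit of a peak over the background of the same library, was also on a different scale in the cell line and the tissue. At the 7248 promoters with a peak in all 9 libraries its median was 5.09 to 7.20 in OSCs and 8.13 to 12.0 in ovaries. For the tests and mean differences between ovaries and OSCs, fold enrichment was therefore taken as log2 and centred on that median in each library. A floor of −1.44 was used where there was no peak, and lower centred values of peaks were raised to it. Of 4 germline marker genes, vas, aub, AGO3 and rhi, all 4 had a peak within 1 kb of a transcription start site (TSS) in each ovary library and 2 to 3 had one in the OSC libraries. Of 5 follicle cell markers, 5 were open in the ovaries and 4 to 5 in OSCs. The promoter of l(3)mbt had a peak in all 9 libraries, with a fold of 4.01 and 6.30 in the Δl(3)mbt OSCs, which does not check the deletion.

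In the ovary, a germline stem cell divides next to somatic cap cells, whose BMP ligands reach it and keep bam transcription off through Mad, Medea and Schnurri bound to a silencer in the bam gene. The daughter that leaves the niche turns bam on, and Bam acts with Bgcn to repress the translation of maintenance factors. Nanos and Pumilio are RNA-binding repressors that hold differentiation back in the stem cell, Stonewall is a chromatin-associated protein needed for stem cell maintenance, and the innexin Zpg forms gap junctions between germ cells and the somatic cells around them. Pgc and Gcl act earlier, in the primordial germ cells of the embryo, where they keep somatic transcription and somatic signalling off.

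Shown here are the sequences at the TSSs of nanos and bam, at the intronic sites found in all ovary and no OSC libraries, and between zpg and the neighbour that shares its peak, as reference sequence of the dm6 assembly, each 5′ to 3′ on the strand of the gene. The nanos promoter (chr3R:19157038-19157247, plus strand) is the stretch before the nanos TSS with the first 10 bases of its transcript, and lies inside an intron of the neighbour CG11779. The bam promoter (chr3R:25245110-25245309, minus strand) is the 200 bases before the bam TSS, and the bam 5′ UTR stretch (chr3R:25245059-25245088, minus strand) holds the silencer. The nanos intronic site (chr3R:19157980-19158180) and the pum intronic sites 1 (chr3R:9186790-9186990) and 2 (chr3R:9198382-9198582) are 201 bases centred on a peak summit. The zpg-Rexo5 spacer (chr3L:6606033-6606178) is all that lies between the TSS of zpg and the nearest divergent TSS of Rexo5. It also lies inside an intron of Rexo5, which has a further TSS. Capitals mark TATCGATA, the DNA replication-related element (DRE), and CCGTTA on either strand, the top-scoring Ovo motif of the study. In the bam 5′ UTR they mark the match to the Mad/Medea/Schnurri silencer motif.
nanos promoter: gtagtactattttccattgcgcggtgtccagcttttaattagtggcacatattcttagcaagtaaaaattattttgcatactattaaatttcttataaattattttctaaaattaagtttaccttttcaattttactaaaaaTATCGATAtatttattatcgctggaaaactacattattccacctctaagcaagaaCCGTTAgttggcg
bam promoter: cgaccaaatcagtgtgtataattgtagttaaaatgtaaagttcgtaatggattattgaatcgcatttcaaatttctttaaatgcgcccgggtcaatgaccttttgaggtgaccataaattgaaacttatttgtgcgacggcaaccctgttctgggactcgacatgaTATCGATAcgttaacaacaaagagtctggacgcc
bam 5′ UTR: gaattcgcAGACAGCGTGGCGTCaggcatt
nanos intronic site: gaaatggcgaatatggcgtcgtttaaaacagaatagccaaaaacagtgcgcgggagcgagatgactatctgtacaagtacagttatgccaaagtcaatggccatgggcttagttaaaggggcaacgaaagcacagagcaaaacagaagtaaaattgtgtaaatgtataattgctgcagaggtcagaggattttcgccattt
pum intronic site 1: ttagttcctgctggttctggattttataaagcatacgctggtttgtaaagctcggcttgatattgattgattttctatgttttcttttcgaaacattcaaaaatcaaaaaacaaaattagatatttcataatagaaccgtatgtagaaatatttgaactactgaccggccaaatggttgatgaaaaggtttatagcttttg
pum intronic site 2: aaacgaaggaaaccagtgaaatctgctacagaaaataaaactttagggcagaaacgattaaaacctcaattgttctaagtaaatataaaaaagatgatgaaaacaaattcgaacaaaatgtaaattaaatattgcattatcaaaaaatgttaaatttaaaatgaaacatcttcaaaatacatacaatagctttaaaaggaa
zpg-Rexo5 spacer: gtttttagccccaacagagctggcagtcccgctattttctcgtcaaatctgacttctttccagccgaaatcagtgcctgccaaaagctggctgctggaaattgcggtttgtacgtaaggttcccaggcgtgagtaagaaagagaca

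Both bam and nanos held a DRE upstream of the TSS, at −34 to −27 in bam and at −58 to −51 in nanos. Among the 200-base windows before all 23697 annotated TSSs, 5.19% held this motif, and 2 of the 13 windows of the 8 genes did. The CCGTTA of nanos lay across the TSS itself, from −3 to 2. The silencer match of bam lay 29 to 43 bp downstream of its TSS, and 0.50% of the 201-base windows around sites over the genome held such a match. This motif was chosen as the silencer of the bam type, so the match at bam was known in advance. A match describes the letters only, and none of these elements was tested for binding here.

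Of the 8 genes, nanos alone had a peak summit within 0.2 kb of its TSS in all 5 ovary libraries and in none of the 4 OSC libraries. bam had one in all 5 ovary libraries and in a single OSC library, and bgcn had one in OSCs only. Over all genes with such a summit in any library (10677), 1.47% had it in all ovary and no OSC libraries and 1.96% in all OSC and no ovary libraries. The same counts were 1 and 0 among the 7 of the 8 genes that had any such summit, and stwl had none. These are counts, with no test. They used the distance of 0.2 kb, which was chosen after the peaks of the neighbouring genes had been seen to fall within 1 kb.

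**Figure D1:**
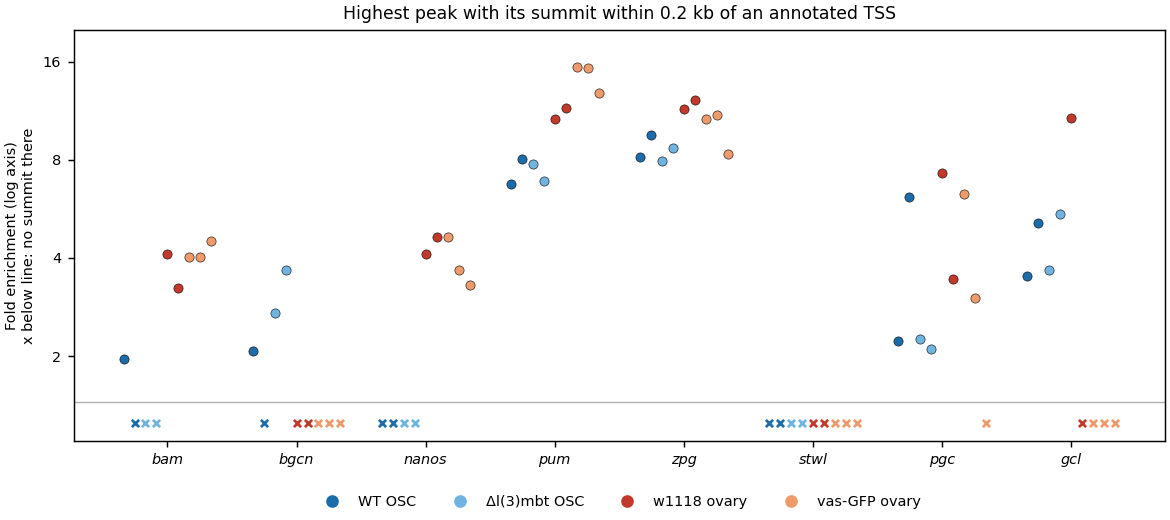
Fold enrichment (log axis) of the highest peak with its summit within 0.2 kb of a TSS, for each gene (horizontal axis) and library (points, coloured by group); a cross under the line marks a library with no such summit. nanos has points for the 5 ovary libraries only, bam adds wild-type OSC replicate 1 at 1.95, and bgcn has points for 3 OSC libraries. At gcl the ovary libraries with a cross have a peak over the TSS with its summit farther downstream.

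nanos (FBgn0002962, chr3R:19157238-19160202, plus strand) encodes the translational repressor that stem cells need to be maintained. Its TSS site was 4.12- and 4.65-fold enriched in w1118 ovaries and 4.65-, 3.66- and 3.29-fold in vas-GFP ovaries, with summits between −11 and 42 bp of the TSS. No OSC library of either genotype had a summit there, so the groups did not overlap. A TSS of the neighbour CG11779 lay 221 bp from that of nanos, and CG11779 also runs through the nanos promoter. The TSS site was thus assigned to nanos by distance only. With peaks limited to those of −log10 q of at least 10, no gene of the 8 kept a TSS summit in all ovary and no OSC libraries, which gave a count of 0 in place of 1. A second site of this kind lay in the nanos intron, 842 bp downstream, with folds of 5.54, 4.54, 5.13, 5.83 and 7.85 in the w1118 replicates 1 and 2 and the vas-GFP replicates 1 to 3. This site also lay in an intron of CG11779, as the nanos promoter does, so it cannot be assigned to nanos alone. A further intronic site at 1148 bp was found in 4 ovary libraries, at 4.18, 4.79, 6.65 and 6.04, and in no OSC library. Its missing ovary library was vas-GFP replicate 3, the one with the fewest peaks. Within the coding exon, a site at 483 bp was present in 4 ovary libraries at 2.94 to 3.73 and in wild-type OSC replicate 1 at 1.9. Upstream of nanos the picture was different. A peak had its summit at −434 bp, which is 8 bp from another TSS of CG11779. It was present in all 9 libraries, at 7.62, 5.62, 6.91 and 6.38 in OSCs and 9.59, 9.60, 7.49, 6.44 and 5.90 in ovaries. This shared peak is higher than the nanos TSS peak in every ovary library, and it is the highest peak within 1 kb of nanos in all OSC libraries.

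bam (FBgn0000158, chr3R:25243039-25245109, minus strand) encodes the factor that starts differentiation. Its TSS site was 4.10-, 3.24-, 4.02-, 4.02- and 4.49-fold enriched in the 5 ovary libraries, with the peak over the TSS in each and the summit at −67 to −19 bp. Wild-type OSC replicate 1 had it at 1.95, below every ovary value (the 5th percentile of all peaks of that library was 1.74), and the other 3 OSC libraries had no summit there. The 201 bases around its summit held both the DRE and the silencer match shown above. Leaving out wild-type OSC replicate 1 would place bam beside nanos, with 2 genes open at the TSS in all ovary and no OSC libraries. Upstream, at −1933 bp, a site was found only in the 2 w1118 libraries, at 4.70 and 4.54, and in none of the 3 vas-GFP libraries, although the list called on the merged vas-GFP replicates held a peak there at 2.80. Δl(3)mbt OSC replicate 1 had no peak in the whole bam locus.

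bgcn (FBgn0004581, chr2R:23853270-23858921, minus strand) encodes the partner of Bam, and showed the opposite arrangement at its TSS. A site in the 5′ UTR, 119 bp downstream of the TSS, was found in wild-type OSC replicate 1 at 2.07 and in both Δl(3)mbt OSC libraries at 2.72 and 3.67, and in no ovary library. No peak lay over the bgcn TSS itself in any library. The site held a CCGTTA at 144 to 149 bp from the TSS. When only peaks of −log10 q of at least 10 were kept, both Δl(3)mbt libraries retained this site, at 14.5 and 19.2, and the wild-type one, at 7.79, lost it. The strongest site of the locus in every ovary library was not that of bgcn but that of Pym, a gene nested within it. This site, 1937 bp downstream of the bgcn TSS, was found in all 9 libraries, at 3.39, 3.51, 3.81 and 5.56 in OSCs and at 12.8, 10.9, 10.3, 8.13 and 7.10 in ovaries. No ovary value overlapped an OSC value there, on a scale on which shared promoters were also higher in ovaries.

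pum (FBgn0003165, chr3R:9066343-9237682, minus strand), which encodes the RNA-binding partner of Nanos, is the longest of the 8 genes at 171 kb and has 4 annotated TSSs. Each of the 4 was covered by a peak in all 9 libraries. At the most upstream TSS (9237682) the peak was 3.14 to 5.49-fold enriched in OSCs and 6.14 to 8.89-fold in ovaries. At the next (9237025) it was 4.96 to 6.87-fold in OSCs and 10.7 to 13.2-fold in ovaries. On the deposited scale the ranges did not overlap at either TSS, but shared promoters were also higher in ovaries on that scale. The ranges were not centred for single TSSs, so a difference beyond the scale was not tested there. They overlapped at the other pair, with 10.3 to 11.4 against 10.6 to 14.5 at TSS 9226840 and 6.75 to 10.2 against 8.71 to 15.5 at TSS 9157950. Some intron sites had a summit in the tissue and none in the line. Site 1 at position 9186890 had folds of 8.73 and 8.38 in w1118 and 14.7, 8.84 and 9.04 in vas-GFP ovaries, and no summit in OSCs. Site 2 at position 9198482 had 11.6 and 11 in w1118 and 16.9, 13.1 and 6.84 in vas-GFP ovaries, and no summit in OSCs. In each ovary library the folds of both sites were within or above the range of its 4 TSS peaks, and the sites lay 50.8 and 39.2 kb downstream of the most upstream TSS.

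The reverse was seen at 3 other sites of the pum locus, which had a summit in all 4 OSC libraries and in no ovary library. A site in the 3′ UTR (9068734) was at 3.29 and 3.12 in wild-type and 2.17 and 2.79 in Δl(3)mbt OSCs. An intronic site at 9172226 was at 2.13 and 3.63 in wild-type and 4.18 and 5.81 in Δl(3)mbt OSCs. Another at 9220561 was at 3.57 and 4.53 in wild-type and 4.70 and 5.64 in Δl(3)mbt OSCs. The nearest TSS was that of Ada for the 3′ UTR site (3551 bp), of CG11997 for 9172226 (5291 bp) and of pum for 9220561 (6279 bp). Folds at the intronic pair were higher in both knockout libraries than in both wild-type libraries as deposited, while those at the 3′ UTR site were lower, and 2 libraries against 2 cannot give a two-sided exact permutation p below 0.333. Of the 83 sites of the locus, 10 were found in all 9 libraries.

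**Figure D2:**
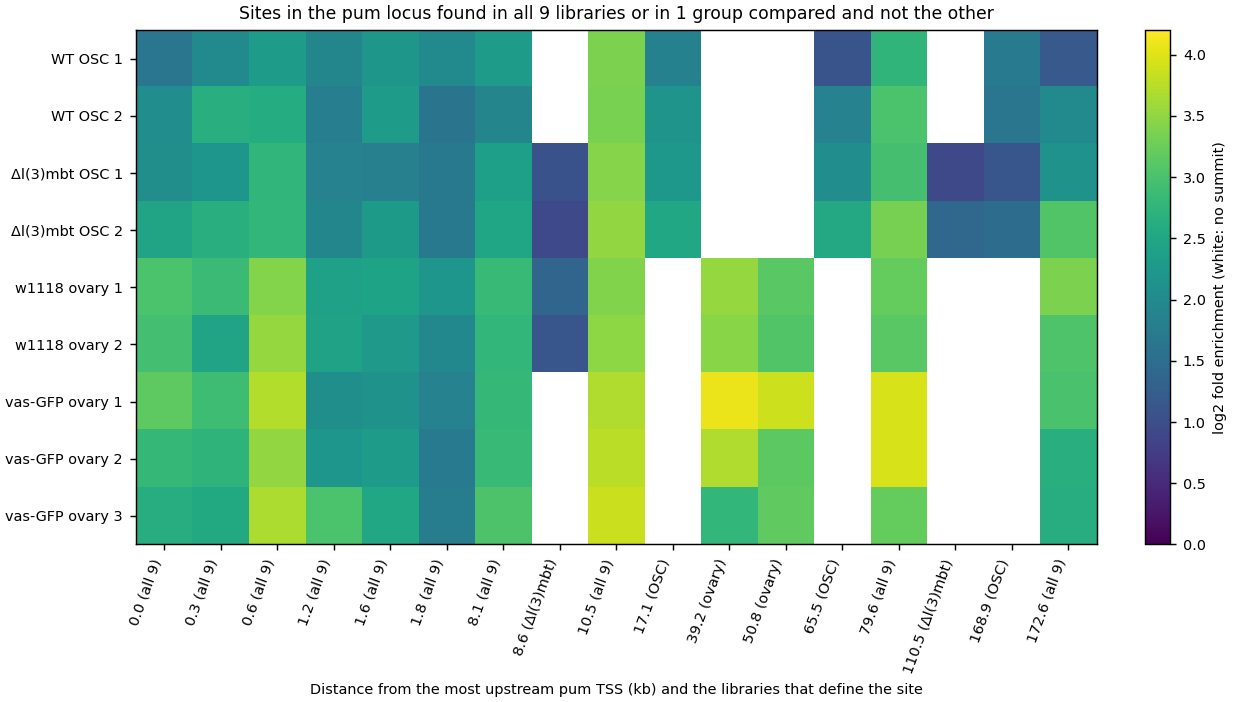
log2 fold enrichment (colour) at the pum sites found in all 9 libraries, in all ovary and no OSC libraries, in all OSC and no ovary libraries, or in both Δl(3)mbt and neither wild-type OSC library, with sites in columns by their distance in kb from the most upstream TSS and libraries in rows; white marks no summit. The columns at 39.2 and 50.8 kb are filled in the 5 ovary libraries only, and those at 17.1, 65.5 and 168.9 kb in the 4 OSC libraries only.

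zpg (FBgn0024177, chr3L:6604366-6606032, minus strand), the germline gap junction gene, was open in every library. Its TSS site was at 8.16 and 9.57 in the wild-type and 7.92 and 8.73 in the Δl(3)mbt line. Ovary folds were 11.4 and 12.2 (w1118) and 10.7, 11 and 8.34 (vas-GFP). The summit lay at −156 to −105 bp, within or just past the far end of the 146-base spacer shown above, so that the peak is shared with Rexo5 and its height cannot be assigned to either gene. On the centred scale all 5 ovary values (0.08 ± 0.11, SD) lay below all 4 OSC values (0.53 ± 0.18, SD). The difference was −0.46 (exact permutation p = 0.00794, the smallest that 5 libraries against 4 can give, adjusted p = 0.0508), and it turned to +0.31 when fold enrichment was not centred. Over the 9 libraries the promoter values of zpg followed those of Rexo5 (Pearson r = 1, the same peak), scf (0.978) and CG13084 (0.963) most closely, as a description over libraries that share their scale. Downstream of zpg, 2 sites near the TSS of ndl, a follicle cell gene of eggshell and embryonic axis formation, were found in 4 of the 5 ovary libraries, with vas-GFP replicate 3 as the exception, and in no OSC library. The site 23 bp from that TSS was at 8.17, 6.78, 5.51 and 4.85.

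stwl (FBgn0003459, chr3L:14402930-14409939, minus strand) had a strong peak in every library. This peak lay over the upstream TSS in all 9 libraries with the summit 380 bp downstream, so that no summit fell within 0.2 kb. Its folds in the cell line were 12.6 and 9.14 (wild type) and 10.9 and 11 (Δl(3)mbt). In ovaries they were 13.3 and 14.7 (w1118) and 14.3, 17.1 and 15.4 (vas-GFP). No peak lay over the downstream TSS. A second site at −448 bp, towards CG3919, was at 7.79 to 9.60 in OSCs and 12.9 to 19.0 in ovaries. Within 1 kb of a TSS the ovary and OSC means differed by −0.04 (0.83 ± 0.23 against 0.87 ± 0.35, SD, exact permutation p = 0.81), a difference smaller than either SD, and this small difference changed sign when fold enrichment was not centred (+0.73) or when wild-type OSC replicate 1 was left out (+0.10).

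pgc (FBgn0016053, chr2R:22330200-22332813, plus strand), a repressor of transcription in primordial germ cells, differed widely between replicates. The site next to its upstream TSS was at 2.87 and 6.18 in the wild-type and 4.28 and 7.56 in the Δl(3)mbt line. Ovary folds were 7.30 and 3.45 (w1118) and 6.29 and 3.01 (vas-GFP replicates 1 and 2). The folds of the groups overlapped, but the place of the summit differed. It lay at −239 bp in wild-type OSC replicate 1 and both Δl(3)mbt libraries, and at −104 bp in wild-type OSC replicate 2. In these ovary libraries it lay at −114 to −36 bp. A peak covered this TSS in 4 ovary libraries and in 1 OSC library. vas-GFP replicate 3 had no peak in the pgc locus at all, and its nearest peak lay at −6221 bp from the TSS. At the downstream TSS, 99 bp from that of T3dh on the other strand, a site was found in both w1118 libraries, at 3.00 and 2.79, and in Δl(3)mbt OSC replicate 2 at 2.11. Within 1 kb the ovary mean was −1.14 ± 0.39 and the OSC mean −0.27 ± 0.42 (SD), a difference of −0.86 (exact permutation p = 0.0476, adjusted p = 0.156). In that mean w1118 replicate 2, with a peak at 3.45, took the floor of −1.44, as did vas-GFP replicate 3 without a peak.

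gcl (FBgn0005695, chr2R:8724258-8728999, plus strand), whose product removes the receptor tyrosine kinase Torso in primordial germ cells, had a peak over its TSS in all 9 libraries, but the place of the summit differed. In OSCs 1 summit lay at −60 to 3 bp, at 3.52 and 5.11 in wild-type and 3.67 and 5.45 in Δl(3)mbt cells. Among ovaries only w1118 replicate 1 had a separate peak with its summit there, at 10.8. In the other ovary libraries 1 peak covered both the TSS and the second summit given next, from 8724128 to 8725048 in vas-GFP replicate 1. The summit of that peak lay at the second place, so the missing TSS summit in these libraries does not show less open DNA at the TSS. A second summit, 298 to 325 bp downstream in an intron, was present in all 9 libraries, at 4.02, 3.27, 4.04 and 4.56 in OSCs and 10.8, 11.9, 11.7, 11.6 and 13.0 in ovaries. Within 1 kb the ovary mean was 0.22 ± 0.30 and the OSC mean −0.36 ± 0.08 (SD), a difference of +0.58 with no overlap (exact permutation p = 0.0159, adjusted p = 0.0796). It was +1.35 when not centred. A peak at −403 bp, next to the TSS of CG14767, was also present in all 9 libraries, at 2.63 to 5.20 in OSCs and 6.12 to 10.8 in ovaries. The genes whose promoter values followed gcl most closely over the 9 libraries were CG14767 and snoRNA:gcl-a, which share its peak (Pearson r = 1), and lncRNA:CR45166 (0.981).

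**Figure D3:**
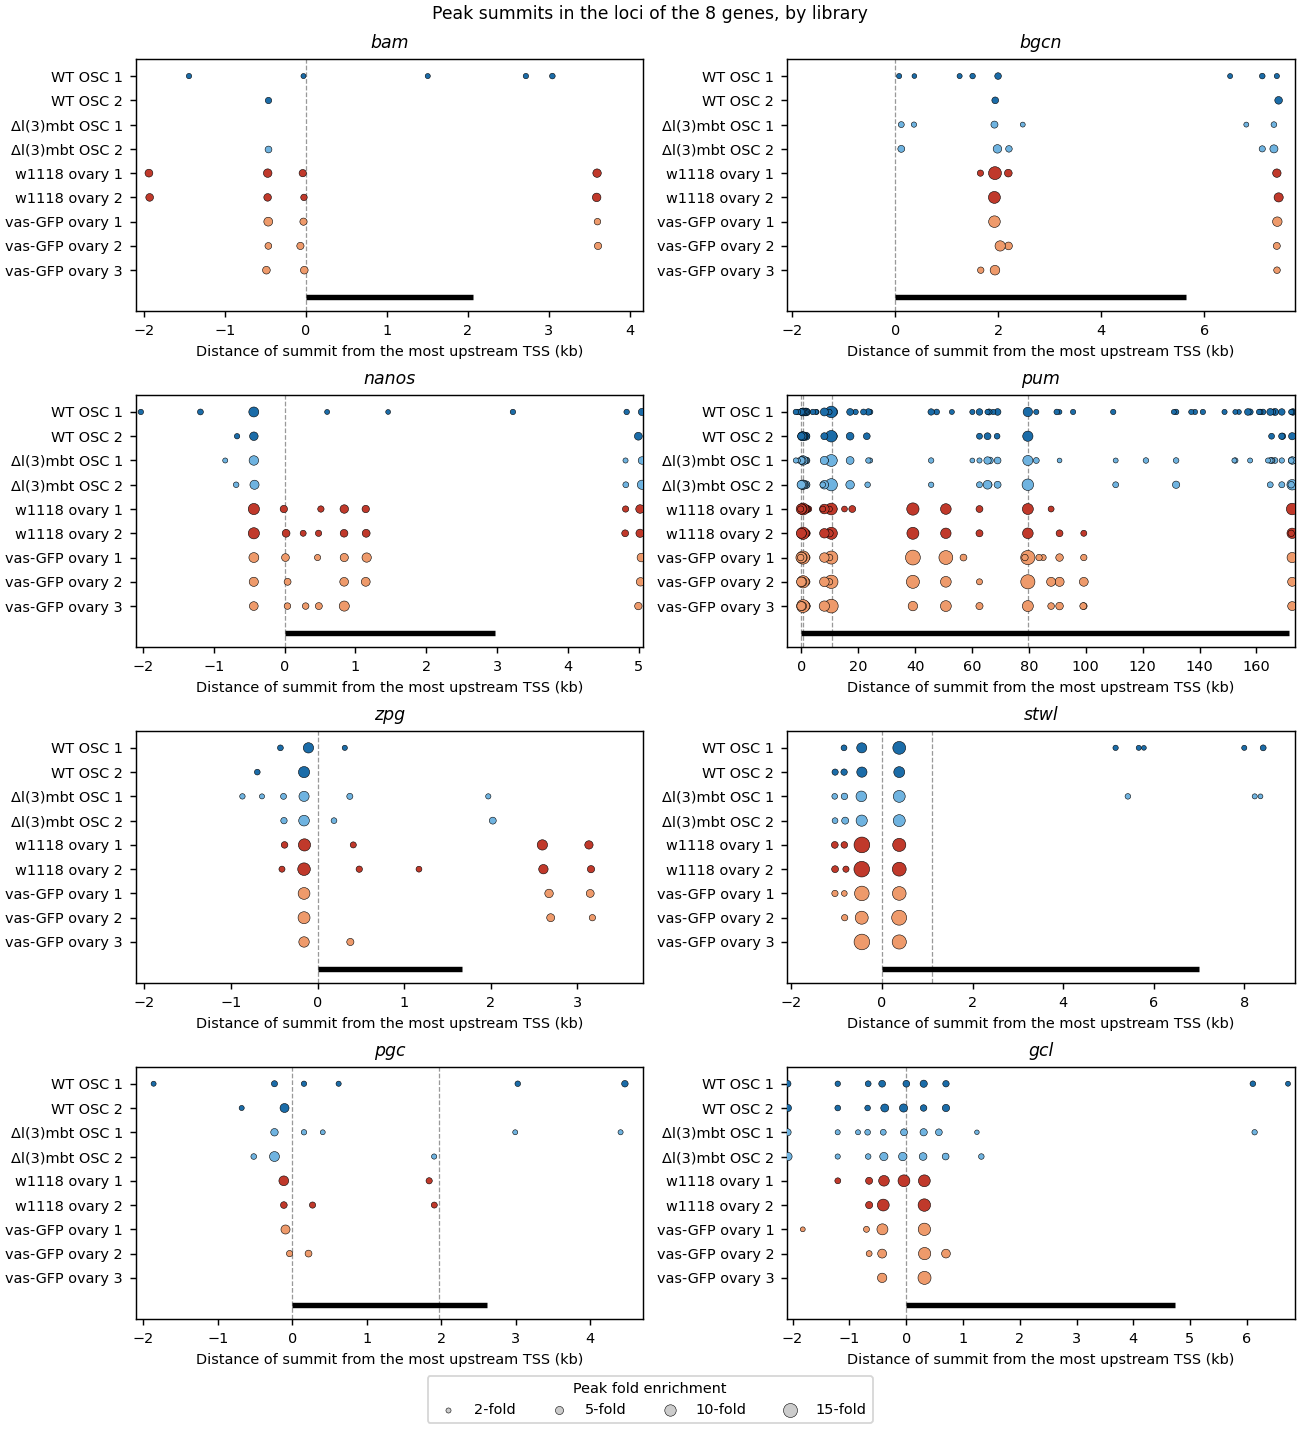
Peak summits (circles, area in proportion to fold enrichment) in the 8 loci, by library (rows) and distance in kb from the most upstream TSS; dashed lines mark TSSs and the black bar the gene body, and for pum 1 circle stands for 1 site. At 842 bp in the nanos gene body all 5 ovary libraries and no OSC library have a summit, and the pgc panel is empty for vas-GFP replicate 3.

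Over the 8 loci, 230 kb in all, the libraries had 40 to 103 peaks in OSCs and 35 to 55 in ovaries, which covered 3.78 to 10.6% and 3.49 to 5.46% of the sequence. Summits of the 9 libraries linked within 150 bp formed 152 sites, of which 88 were found in at least 2 libraries and 18 in all 9. Of the 88, 4 (4.55%) were in all ovary and no OSC libraries, 2 each in nanos and pum, against 4.25% of 44240 sites over the genome. Another 3 (3.41%) were in all OSC and no ovary libraries, all in pum, against 6.15%. The share of ovary-only sites was thus near that of the genome. Without vas-GFP replicate 3 the ovary-only count was 8, with 1 site in bam, 3 in nanos and 2 each in pum and zpg, while the share over all sites was 6.64%. Without wild-type OSC replicate 2 the OSC-only count was 8 (10.2% over all sites), and it was 5 without w1118 replicate 1 (6.94% over all sites).

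Loss of l(3)mbt was set against wild type over the 67 sites found in at least 2 OSC libraries. Of these, 4 (5.97%) were in both Δl(3)mbt and neither wild-type library, against 5.61% of 33651 sites over the genome, and 0 were in both wild-type and neither Δl(3)mbt library, against 2.6%. Their folds were low, in pum at 1.91 and 2.66 (9127162) and at 2.08 and 1.9 (9229097), in gcl at 1.61 and 2.38, and beyond the 3′ end of zpg at 2.13 and 3.68. The nearest TSS to the zpg site was one of Rexo5, at 349 bp. The second pum site was also in both w1118 libraries, at 2.58 and 2.18. None lay within 0.2 kb of the TSS of its gene, and neither nanos nor bam had a TSS summit in either Δl(3)mbt library. The count rested on the wild-type library with the most peaks: without wild-type OSC replicate 1 it was 13, when 19.5% of all sites were of this kind, and with an equal number of peaks per library (16588) it was 1, in bgcn, when 5.43% were. 2 libraries per genotype allow no test below an exact permutation p of 0.333.

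**Figure D4:**
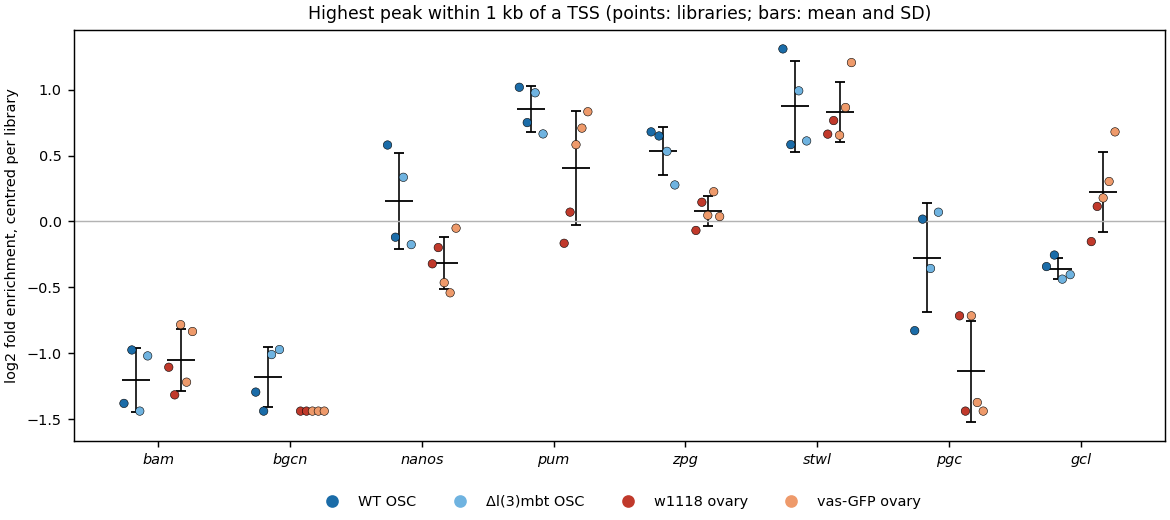
Centred log2 fold enrichment of the highest peak within 1 kb of a TSS for each gene (horizontal axis), with points for libraries coloured by group and bars for the mean and SD of 4 OSC and 5 ovary libraries. The ovary points lie below all OSC points at zpg and above them at gcl, and the groups overlap at the other 6 genes.

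The test within 1 kb of a TSS was made for 15484 genes. The adjusted p passed 0.05 for none of them, 0% higher and 0% lower in ovaries by exact permutation with Benjamini-Hochberg adjustment, and 4719 genes (30.5%) had an unadjusted p below 0.05. At this design a call at the smallest p alone needed 2458 genes at that p, and 2421 reached it. Libraries of the 2 kinds did not overlap at 1 gene higher (gcl) and 1 lower (zpg) of the 8, and at 1192 (7.7%) and 1844 (11.9%) of all genes. Two-sided p-values for the genes not given above were 0.357 for bam (+0.15, adjusted p = 0.556), 0.0476 for bgcn (−0.26, adjusted p = 0.156), 0.0476 for nanos (−0.47, adjusted p = 0.156) and 0.111 for pum (−0.45, adjusted p = 0.299) by the same exact permutation test. At nanos the highest peak within 1 kb was the CG11779 peak in 8 libraries and the intronic site in vas-GFP replicate 3, and in a window of 0.2 kb the difference was +0.15. The median of the 8 genes was −0.35, beside −0.08 over all genes tested. When fold enrichment was not centred, the median of all genes rose to +0.34 and the counts to 4687 higher and 580 lower, with bam (+1.17), stwl and gcl among those higher at an adjusted exact permutation p of 0.0285. Among the genes with a peak in at least 4 libraries, 878 were higher and 1543 lower, and zpg was among the latter (adjusted p = 0.0350 by the exact permutation test).

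Around the 88 sites, 201-base windows held CCGTTA on either strand in 5 (5.68%), the DRE in 3 (3.41%) and the silencer motif in 2 (2.27%), beside 4.92%, 2.62% and 0.50% of the windows at 44240 sites over the genome. The sites with CCGTTA included, besides those of nanos and bgcn, a site in gcl and, with 2 copies, an intronic site of pum (9138375), which was found in 4 ovary libraries at 2.79 to 6.03. Of the silencer matches, that of bam was known in advance, because the motif was chosen as the silencer of the bam type. Their share is therefore no test of the 8 genes. The other match lay at a coding exon site of pum (9079888). This site was found in wild-type OSC replicate 1 at 2.88 and in Δl(3)mbt OSC replicate 1 at 1.96, and in no ovary library. The 200 bases before the TSSs of the 8 genes held neither CCGTTA nor the silencer motif, which 5.74% and 0.215% of all upstream windows did. For Ovo only CCGTTA was searched. The study also gives the wider CNGTTA, so these counts are of a narrower pattern.

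Promoters of 26 other genes of the niche signal, of germ cell differentiation and of primordial germ cell migration were open in nearly every library, with a peak within 1 kb at 25 to 26 of them in ovaries and 24 to 25 in OSCs. None passed the test in either direction, and the median difference was −0.04. With a peak in at least 4 libraries, 2 of 25 passed, both lower in ovaries (Mad and nclb, adjusted p = 0.0350 by exact permutation), and the same 2 did with equal peak numbers (adjusted p = 0.0483 by exact permutation). Without centring 17 passed, all higher in ovaries, nclb among them (+0.41). Libraries did not overlap at 3 of the 26, beside 11.9% lower over all genes, and all 3 were lower in ovaries on the centred scale: dpp, the BMP ligand of the niche (−0.56, adjusted p = 0.0796), Mad, the transcription factor of that signal (−0.25, adjusted p = 0.0508), and nclb, a chromatin-associated factor of germline maintenance (−0.36, adjusted p = 0.0508), all by exact permutation. On the deposited scale dpp was at 9.7, 8.12, 7.95 and 9.37 in OSCs and at 11.2, 10.5, 8.93, 9.46 and 10.5 in ovaries, Mad at 8.36 to 11.7 and at 11.7 to 16.3, and nclb at 6.51 to 7.65 and at 8.28 to 10.6, so that the direction of all 3 rests on the centring. Sxl, an RNA-binding regulator of germline sex and differentiation, differed by −0.50 (exact permutation p = 0.0317) and by +0.27 without centring. tut, a partner of Bam and Bgcn in the male germline, had a peak in the w1118 libraries only, at 4.56 and 3.62. otu, needed for cyst differentiation, had a summit within 0.2 kb of a TSS in 4 ovary libraries, at 2.34 to 3.52, and in no OSC library.

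**Figure D5:**
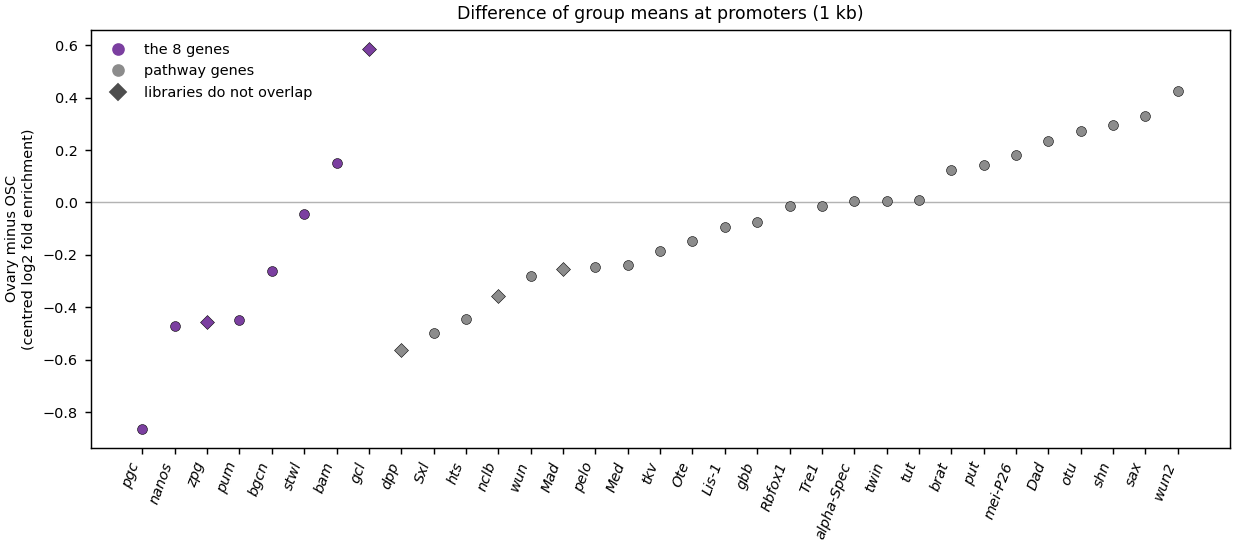
Ovary minus OSC difference of the mean centred log2 fold enrichment within 1 kb of a TSS (vertical axis) for the 8 genes and 25 of the 26 pathway genes (horizontal axis); diamonds mark genes at which the libraries do not overlap. gcl is the one diamond above 0, and zpg, dpp, Mad and nclb are the diamonds below 0.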

How the data were processed

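The authors trimmed reads with cutadapt 1.18, aligned them to dm6 (BWA mem), marked duplicates (Picard 2.9.0), filtered (SAMtools 1.9) and called peaks by MACS2 2.1.1.20160309 (q-value of at most 0.05, no fragment model, no control library named), in each library and on the 4 sets of merged replicates. The deposited lists give each summit, its fold enrichment (a ratio within a library, not scaled between libraries by the authors) and the −log10 of its q-value. Read depth was not used here. Numbers of ovaries differed between vas-GFP libraries, and the study varied the tagmentation time without saying in which library. The authors' DiffBind table of Δl(3)mbt against wild type (log2 fold changes and FDR) was not used.

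Genes and TSSs came from Ensembl 115 (BDGP6.54). Sequences were read from the RefSeq genome of dm6. A peak counted at a promoter when it overlapped 1 kb either side of a TSS by at least 1 bp, and summits chained within 150 bp of the next formed a site. Means of 5 ovary and 4 OSC libraries were compared per gene by an exact two-sided permutation test over 126 arrangements, with Benjamini-Hochberg adjustment over 15484 genes, tested on simulated data first. The floor was the 5th percentile of all peaks of a library, centred, at its highest over the 9 libraries (wild-type OSC replicate 2). The text names the 8 genes, neighbours within 2 kb, the 3 genes most like each whose libraries do not overlap, and of the pathway list those called or with the 3 largest differences (those whose libraries do not overlap, tut and otu were added after their values were seen). A pathway gene and a site that the rule would name are not reported here. The 8 genes, the lists, the motifs and the alternatives were chosen with earlier results of these data known. Alternatives covered the scale, window, filter, q-value, equal peak numbers, linking distance, wild-type OSCs only, a replicate block and leaving out each library. Python 3.11.15, NumPy 2.4.6, pandas 2.3.3 and matplotlib 3.10.9 were used.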

Additional observations from a re-analysis of the deposited data

How the results depend on the processing

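Genes passing the test numbered 0 as reported, 5267 without centring (4687 higher and 580 lower in ovaries), 2421 with a peak in at least 4 libraries (878 and 1543) and 1922 with equal peak numbers (782 and 1140), and 0 when each library was left out. With a library left out the smallest exact permutation p was 0.0179 or 0.0286. A call then needed more genes at that p than had any p below 0.05 (3170 to 3878). Those counts of 0 therefore cannot show that the result is stable. Without centring, nanos (+0.30), pum (+0.32), zpg (+0.31) and stwl (+0.73) changed direction; nanos did so in the 0.2 kb window (+0.15), and stwl without wild-type OSC replicate 1 (+0.10) or vas-GFP replicate 1 (0.00092), in a range of −0.15 to +0.10 over the libraries left out. Direction held at bam, bgcn, pgc and gcl in all alternatives that could be run. Keeping −log10 q of at least 10 gave 1 OSC-only and 2 Δl(3)mbt-only sites, equal peak numbers gave 1 OSC-only, 1 Δl(3)mbt-only and 1 wild-type-only site, and linking within 300 bp gave 2 ovary-only (the nanos sites merged with neighbours) and 5 OSC-only sites. Leaving out each library gave 4 to 8 ovary-only, 3 to 8 OSC-only and, over the wild-type libraries, 5 to 13 Δl(3)mbt-only sites. Genes with a summit within 0.2 kb of a TSS in ovaries only numbered 0 at −log10 q of at least 10, and 1 to 2 when each library was left out. Those with such a summit in OSCs only numbered 0 to 1. These TSS alternatives were chosen after seeing the data. With the replicate block, over 6 libraries, 0 genes passed, and its smallest p is 0.111; nothing in the labels pairs the libraries. bgcn had a peak in fewer than 4 libraries and drops out under that filter, and a genotype-only count has no value without a library of its own genotype. Read depth was not given by the peak lists, so an absent peak may be one under the threshold of that library. Where a library was left out, the counts that moved by over 1.5 times did so without wild-type OSC replicate 1 (the most peaks, 59420) or 2, w1118 replicate 1 or vas-GFP replicate 3 (the fewest, 16588). Counts also moved by as much under the scale, filter, q-value, equal peak number and linking settings given above. Peaks of genes with TSSs close together could not be assigned to one of them.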

Other observations

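Peak lists called by the authors on merged replicates held 273 summits in the 8 loci, of which 17 had no summit of a library of the same group within 150 bp, at folds of 1.60 to 2.9. One of these was a peak in the bam locus at 2.50 in the merged Δl(3)mbt OSCs. They were not used in the comparisons.

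Markers of other cell types were read in the same way. Of 4 muscle genes, 2 to 3 had a peak within 1 kb of a TSS in the ovary libraries and 1 to 4 in the OSC libraries. Of 4 neuron genes it was 1 in each ovary library and 1 to 3 in OSCs, of 3 hemocyte genes 1 to 2 and 1 to 3, and of 4 eggshell and yolk genes 4 in each ovary library and 1 to 4 in OSCs. Among the germline markers, aub, a piRNA-binding protein, had a summit within 0.2 kb of its TSS in all 5 ovary libraries, at 7.55, 5.63, 4.56, 6.67 and 6.39, and in no OSC library, as nanos did. vas, the RNA helicase gene that carries the tag in the vas-GFP strain, was open in all 9 libraries within 1 kb, at 5.69 to 7.10 in OSCs and 4.39 to 6.26 in ovaries. The part of cell composition in the results above was not tested.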
